A study of Mus musculus with 8 samples.

Results

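Gcnt1, Car3, Il33, Fam43a, Slc7a2, Mcc and Efhd1 met 3 conditions for a fall in total RNA of C2C12 cells overexpressing AUF1. They are the 7 such genes not counted here as Wnt genes, out of 23420 in the count table and 13167 expressed enough to be tested. They were chosen by that contrast: a mean log2 CPM (counts per 1000000 counts of the TMM-scaled library) that reached 3 over all 8 libraries, WT and AUF1 libraries that did not overlap, and an adjusted p under 0.05 in edgeR's quasi-likelihood test. Only 9 genes met these conditions in the downward direction, and the other 2, Axin2 and Nkd2, belong to Wnt signalling and were set aside. Mcc was kept although it can restrain beta-catenin, so the line drawn at Wnt signalling is not sharp. The values of the 7 genes in total RNA are therefore a description, and the tests given for them rest on the polysome libraries. These entered the choice through that mean level and a shared estimate of spread. Polysome mRNA is also a part of total RNA, and the labels do not say whether both fractions came from the same cultures. The polysome tests are thus not independent of the choice.

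RNA was sequenced from C2C12, a line of mouse myoblasts whose cells join into multinucleate myotubes in low serum. Cells labelled WT and cells overexpressing AUF1 were both grown in 10% fetal bovine serum and then kept for 48 h in 2% horse serum. From each genotype, total RNA and RNA on heavy polysomes, the mRNAs that carry many ribosomes, were sequenced in 2 libraries each, which gave 4 groups and 8 libraries. The study asked how AUF1 acts on the stability and translation of mRNAs in muscle regeneration. The vector and promoter used for AUF1, whether the WT cells carried an empty vector, whether the AUF1 cells were a pool or a clone, and whether the 2 libraries of a group stem from separate cultures are not stated in the labels. What AUF1 does and how the lines differ otherwise cannot be told apart, and the spread behind each p-value is that between these libraries and may be technical.

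AUF1, encoded by Hnrnpd, is an RNA-binding protein that recognises AU-rich elements in 3' untranslated regions (3' UTRs) and is known mainly for hastening the decay of the mRNAs it binds, although it stabilises some and affects their translation. During differentiation, myoblasts leave the cell cycle, fuse and switch on genes of the contractile apparatus. The 7 genes do not form a pathway. Gcnt1 is a Golgi glycosyltransferase that branches mucin-type O-glycans, Car3 a cytosolic carbonic anhydrase abundant in slow muscle, fat and liver, and Il33 a nuclear cytokine of the interleukin-1 family that acts as an alarm signal when released. Slc7a2 is a transporter of arginine and lysine, Mcc a cytoplasmic protein first described as mutated in colorectal cancers, and Efhd1 a calcium-binding EF-hand protein of the mitochondrion, whereas the function of Fam43a is little known.

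Depth was 25281224 to 34917660 gene counts per library. In total RNA Hnrnpd rose from 64.2 and 99.6 CPM (WT) to 448 and 397 CPM (AUF1, log2 change 2.37 ± 0.32, edgeR adjusted p = 0.0413), so both labelled overexpressors were above both WT libraries. Muscle markers summed to 4408 and 5108 CPM in WT total RNA and to 27169 and 22309 CPM with AUF1, and 3 of the 9 tested rose in edgeR (8 with the replicate number as a block). On polysomes 0 of the 9 passed in edgeR (7 had an unadjusted p under 0.05, and DESeq2 called 7) and 8 rose with the block. Over all genes edgeR called 1.02% in total RNA and 0.349% on polysomes, and 13.1% and 13.0% with the block. The replicate number separated the libraries on the first principal component (50.1% of variance), and genotype followed on the second (33.8%). Results are therefore given from the model without the replicate number and, beside them, from the model with the number as an additive block.

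Because AUF1 binds AU-rich elements, the 3' UTRs of the 7 genes were searched for the pentamer ATTTA and for the heptamer TATTTAT, which contains it, on the transcript strand of the mm10 annotation (GENCODE M21). ATTTA was present in 6 of the 7 3' UTRs (85.7%), beside 70.1% of 11938 tested genes with an annotated 3' UTR. TATTTAT was present in 4 of the 7 (57.1%), beside 30.5% of those genes. Slc7a2 had the longest 3' UTR, 5774 bases with 12 pentamers, and Gcnt1 had 2932 bases with 6. Mcc had 8 pentamers in 4827 bases, Il33 had 3 in 1677, Car3 had 2 in 862 and Efhd1 had 2 in 1044. Fam43a had 923 bases and 0 pentamers, so its 3' UTR lacked the letters that the other 6 shared. Per kilobase the median was 1.92 pentamers over the 7 genes and 1.30 over all genes searched, and the median length was 1677 beside 1190 bases. Longer 3' UTRs hold more matches of any short word, and a match describes the letters and is not a binding site. The heptamer, the longer of the words found in AU-rich elements, is shown for Gcnt1, Slc7a2 and Efhd1. Each match has 10 bases on either side, 5' to 3' on the transcript strand. Mcc held 1 match as well, which is not shown. The heptamer is in capitals and positions are in mm10.
Gcnt1, chr19:17326184-17326210, minus strand: aatgcaaaatTATTTATgtttttgaat
Slc7a2, chr8:40919363-40919389, plus strand: ctttaagacaTATTTATcatatttcta
Efhd1, chr1:87310054-87310080, plus strand: ttggaaacctTATTTATccctgcggag
Efhd1, chr1:87310704-87310730, plus strand: cttaatgtcaTATTTATttgacttgta

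The promoters of 4 of the 7 genes, Gcnt1, Il33, Fam43a and Efhd1, were taken from a RefSeq table (GRCm38.p6). Each spanned 250 bases before and 50 after the start. The table lists 3 promoters for Gcnt1 and 2 for Il33, and the one nearest the start in GENCODE was used. They were searched on both strands for the E-box CANNTG that myogenic factors bind, the TATA box TATAAA, the TCF/LEF core CTTTG and the AP-1 site TGANTCA. Gcnt1 and Il33 had AT-rich promoters, with 40.7% and 46.3% GC and 2 and 6 CpG dinucleotides. Fam43a and Efhd1 had CpG-rich ones, with 55% and 60.7% GC and 21 and 24 CpG, beside medians of 52.7% and 7 over 32851 promoters. The Gcnt1 promoter held an E-box at base -22, counting the start as 0 and giving the first base of a match, TATA box matches at -244 and, on the opposite strand, at -29, and a TCF/LEF core at -154 on the opposite strand. None of these 4 matches overlapped. The Il33 promoter held an E-box at 11, a TATA box at -203 and a TCF/LEF core at -111, the Efhd1 promoter held a TCF/LEF core at 27, and the Fam43a promoter held 0 matches. The AP-1 site was in 0 of the 4. Of all promoters listed, 72.3% held the E-box, 13.6% the TATA box, 53.9% the TCF/LEF core and 7.81% the AP-1 site. The promoters of Gcnt1, the deepest fall, and Fam43a, the fall that varied least between replicates, are shown as the AT-rich and the CpG-rich kind, 5' to 3' on the gene's strand with matches in capitals.
Gcnt1, chr19:17372795-17373094, minus strand: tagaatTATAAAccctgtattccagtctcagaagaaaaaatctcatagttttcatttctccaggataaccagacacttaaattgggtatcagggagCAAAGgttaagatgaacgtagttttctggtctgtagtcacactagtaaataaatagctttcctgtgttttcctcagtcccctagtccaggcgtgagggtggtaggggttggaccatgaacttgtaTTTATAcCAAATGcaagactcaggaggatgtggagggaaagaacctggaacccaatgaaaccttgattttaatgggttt
Fam43a, chr16:30599473-30599772, plus strand: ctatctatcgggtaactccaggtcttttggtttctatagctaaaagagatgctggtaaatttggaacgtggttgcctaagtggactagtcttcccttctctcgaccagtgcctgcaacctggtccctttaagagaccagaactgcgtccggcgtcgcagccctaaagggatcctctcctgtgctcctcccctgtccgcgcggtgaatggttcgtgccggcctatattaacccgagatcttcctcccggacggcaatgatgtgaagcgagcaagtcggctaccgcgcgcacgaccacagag

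Markers of other cell types were measured in the same libraries. Fibroblast markers summed to 5247 and 718 CPM in WT total RNA (replicates 1 and 2) and to 1758 and 418 CPM with AUF1. On polysomes they summed to 3754 and 743 CPM in WT and to 922 and 426 CPM with AUF1. Most of the sum in WT total RNA came from Col3a1 (3357 and 426 CPM) and Col1a1 (741 and 152 CPM). Neither passed in total RNA with the block (edgeR adjusted p = 0.102 and 0.121). In edgeR 0 of the 10 tested fibroblast markers passed without the block in either fraction (3 had an unadjusted p under 0.05 in each, and DESeq2 called 3 in each), and with it 6 fell in total RNA and 7 on polysomes. The sum was 7.30-fold higher in replicate 1 than in replicate 2 of WT total RNA and 4.21-fold higher in AUF1 total RNA. On polysomes it was 5.06-fold higher in WT and 2.17-fold higher with AUF1. The 7 genes differed between replicates, in either direction, by up to 1.56-fold in WT and 2.59-fold in AUF1 total RNA. On polysomes they differed by up to 1.66-fold in WT and 2.05-fold with AUF1. The conditions of the choice favoured genes with small differences between replicates. These values thus do not show whether the 7 genes follow the fibroblast markers. Adipocyte markers summed to 77.2 and 87.6 CPM in WT total RNA and 34.6 and 43.8 CPM with AUF1, mostly Cebpa and Pparg. In total RNA Cebpa fell from 66.9 to 24.9 CPM (edgeR adjusted p = 0.267, 0.0102 with the block). Pparg stood at 12.3 CPM in WT and 11.4 CPM with AUF1 (0.802 with the block). Plin1, Cfd and Lep were at 0 in all libraries and Adipoq reached 0.11 CPM. Endothelial markers summed to at most 10.1 CPM and immune markers to at most 2.61 CPM. Of 3 tested endothelial markers 1, Vwf, rose in total RNA with the block, from 0.27 to 5.08 CPM (edgeR adjusted p = 0.000662, 0.0829 without it). Epithelial markers summed to 51.7 CPM in WT polysome replicate 1 and to 4.92 to 14.5 CPM in the other 7 libraries, from Krt8 (20.1 CPM) and Krt18 (17.5 CPM). The part of muscle, fibroblast or adipocyte markers in the falls of the 7 genes was not tested.

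With AUF1 the 7 genes were left at between 3.08% and 18.8% of their WT level in the fractions compared. On heavy polysomes the AUF1 level was 3.08% of WT for Gcnt1, 4.87% for Car3, 7.44% for Il33, 8.15% for Fam43a, 13.6% for Slc7a2, 17.04% for Efhd1 and 18.3% for Mcc. In total RNA, where they were chosen, the first 5 came in the same order from 3.35% for Gcnt1, and Mcc at 17.02% came before Efhd1 at 18.8%. On polysomes the lowest WT library exceeded the highest AUF1 library by 4.13-fold (Efhd1) to 23.5-fold (Gcnt1). All 7 genes had groups that did not overlap on polysomes, as did 21.3% of tested genes in the downward direction (17.8% in total RNA, where this was a condition of the choice). In bulk RNA, fewer cells of a kind that expresses a gene and less of its RNA per cell cannot be told apart.

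**Figure D1:**
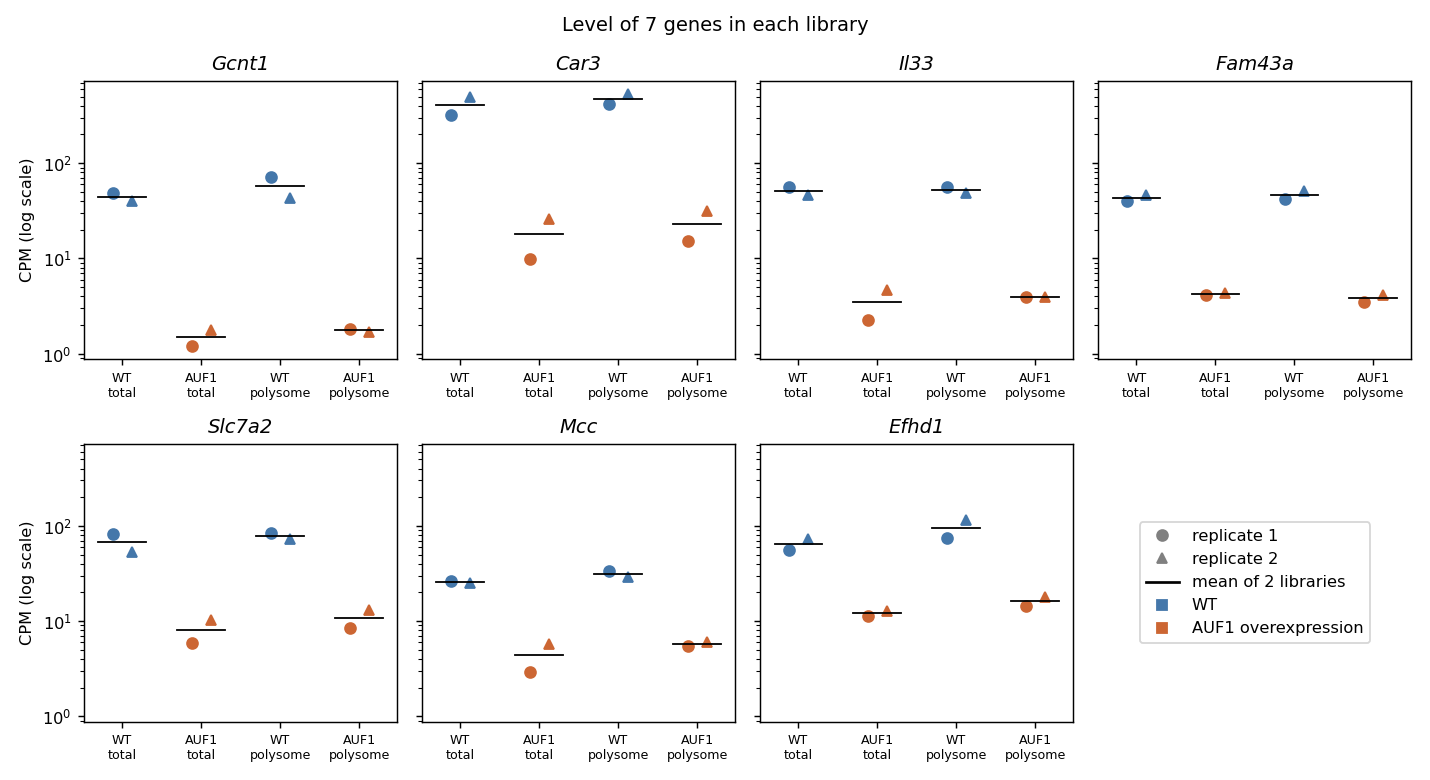
CPM on a log axis of the 7 genes in each of the 8 libraries, by group (WT in blue, AUF1 overexpression in orange), with circles for replicate 1, triangles for replicate 2 and lines for the mean of 2 libraries. Every AUF1 library lies below every WT library of its fraction, and Gcnt1 has the lowest AUF1 values, 1.19 to 1.83 CPM.

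Gcnt1, on mm10 chromosome 19 (17326141 to 17372844, minus strand), adds the branch that turns core 1 into core 2 O-glycans. Total RNA of WT held 49.0 and 39.7 CPM of it in replicates 1 and 2, and total RNA with AUF1 held 1.19 and 1.78 CPM, which were 34 and 48 counts. Polysome RNA held 71.5 and 43.0 CPM for WT against 1.83 and 1.70 CPM for AUF1 (group means 57.3 ± 20.1 and 1.76 ± 0.10, ± SD of n = 2). The WT libraries varied by 1.66-fold on polysomes, and the gap between genotypes was 23.5-fold at its narrowest. On polysomes Gcnt1 fell by 5.02 ± 0.43 (SE) on the log2 scale (edgeR adjusted p = 0.0461, 0.000211 with the block). Within replicates 1 and 2 the polysome change was -5.23 and -4.61. Ranked among the 9662 genes at or above a mean log2 CPM of 3, this polysome fall ranked 2, behind the secreted Wnt modulator Sfrp2 at -8.16.

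Car3 lies on chromosome 3 (14863512 to 14872523, plus strand) and hydrates carbon dioxide slowly compared with the other cytosolic carbonic anhydrases. It was the most abundant of the 7, at 318 and 498 CPM in WT total RNA and 9.91 and 25.8 CPM in AUF1 total RNA. The polysome level was 417 and 537 CPM for WT against 15.2 and 31.2 CPM for AUF1 (group means 477 ± 84.6 and 23.2 ± 11.4, ± SD of n = 2). Replicate 2 was the higher library in all 4 groups, by up to 2.59-fold, and the genotypes stayed at least 12.4-fold apart. On polysomes the log2 change was -4.36 ± 0.64, which did not pass without the block (edgeR adjusted p = 0.0581) and passed with it (0.000211). It was -4.77 and -4.10 within replicates 1 and 2.

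Il33, on chromosome 19 (29925114 to 29960718, plus strand), stood at 55.8 and 46.0 CPM in WT total RNA and at 2.28 and 4.66 CPM in AUF1 total RNA. Heavy polysomes carried 55.7 and 49.1 CPM for WT against 3.88 and 3.91 CPM for AUF1 (group means 52.4 ± 4.65 and 3.90 ± 0.02, ± SD of n = 2). With AUF1 these polysome values were 125 and 106 counts, whose 95% Poisson intervals of 104 to 149 and 86.8 to 128 counts are wider than the spread between the 2 libraries. The groups were far apart in both fractions, and the spread between AUF1 libraries was wider in total RNA than on polysomes. Il33 fell on polysomes by 3.75 ± 0.42 on the log2 scale (edgeR adjusted p = 0.0461, 0.000466 with the block), and changed by -3.82 and -3.63 within replicates 1 and 2.

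Fam43a, a compact gene on chromosome 16 (30599723 to 30602797, plus strand), was the steadiest of the 7 between replicates. It stood at 39.9 and 46.5 CPM in WT total RNA, against 4.10 and 4.37 CPM with AUF1. Polysome libraries held 42.4 and 50.9 CPM for WT against 3.48 and 4.13 CPM for AUF1 (group means 46.7 ± 6.05 and 3.80 ± 0.46, ± SD of n = 2). Its replicates differed by a mean of 0.20 on the log2 scale over the 4 groups, beside a median of 0.51 over tested genes. The choice favoured genes with small replicate differences, so this contrast with all genes was partly fixed by it. Fam43a fell on polysomes by 3.62 ± 0.29 (edgeR adjusted p = 0.0461, 0.000211 with the block), with -3.58 and -3.60 within replicates 1 and 2.

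Slc7a2, the cationic amino acid transporter CAT2, lies on chromosome 8 (40862396 to 40922308, plus strand). It stood at 82.7 and 53.5 CPM in WT total RNA and at 5.85 and 10.2 CPM in AUF1 total RNA. Its polysome level was 84.7 and 73.3 CPM for WT against 8.42 and 13.1 CPM for AUF1 (group means 79.0 ± 8.04 and 10.8 ± 3.32, ± SD of n = 2). Replicate 1 was the higher WT library and replicate 2 the higher AUF1 library in both fractions, so the change was larger within replicate 1. On polysomes it was -3.32 within replicate 1 and -2.48 within replicate 2. The log2 change over both was -2.87 ± 0.44 (edgeR adjusted p = 0.0589 without the block, 0.00146 with it).

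Mcc, on chromosome 18 (44425060 to 44812182, minus strand), can restrain beta-catenin and cell cycle entry. It stood at 26.3 and 25.1 CPM in WT total RNA and at 2.94 and 5.81 CPM in AUF1 total RNA. Polysomes carried 33.6 and 28.8 CPM for WT against 5.44 and 6.01 CPM for AUF1 (group means 31.2 ± 3.41 and 5.72 ± 0.40, ± SD of n = 2). Mcc was the lowest of the 7 in WT, and its AUF1 libraries differed more in total RNA than on polysomes. The polysome log2 change was -2.45 ± 0.39 (edgeR adjusted p = 0.0625, 0.00169 with the block), and -2.61 and -2.25 within replicates 1 and 2.

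Efhd1, on chromosome 1 (87264363 to 87310839, plus strand), is a calcium sensor of the inner mitochondrial membrane. It stood at 56.1 and 72.8 CPM in WT total RNA and at 11.4 and 12.8 CPM in AUF1 total RNA. The polysome libraries held 74.3 and 115 CPM for WT against 14.3 and 17.99 CPM for AUF1 (group means 94.8 ± 28.9 and 16.1 ± 2.61, ± SD of n = 2). Replicate 2 was the higher library in all 4 groups, and the narrowest gap between genotypes on polysomes was 4.13-fold. The polysome log2 change was -2.55 ± 0.34 (edgeR adjusted p = 0.0529, 0.000466 with the block), and -2.37 and -2.67 within replicates 1 and 2.

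Read against all genes, 3 of the 7 (Gcnt1, Il33 and Fam43a) were lower on polysomes by edgeR's test without the block, where 0.0684% of tested genes were (0.349% in either direction). All 7 were lower with the block, where 6.33% were (13.0% in either direction), and all 7 by DESeq2 without the block, where 2.86% were. The median polysome change was -3.62 over the 7 and 0.00 over all 13167 genes. As the 7 were chosen for a fall in total RNA, of which polysome mRNA is a part, these contrasts with all genes were partly fixed by the choice. Replicate differences in total RNA and on polysomes had a Pearson's r of 0.82 in WT and 0.73 with AUF1. The 3 calls without the block were lost when any 1 of the 8 libraries was left out, with DESeq2's size factors in edgeR, and when the polysome libraries were fitted without the total libraries (edgeR adjusted p = 0.197 for each of the 7). In each of these settings 0 of the 7 passed in edgeR at an adjusted p under 0.05, and 7 of 7 at an unadjusted p under 0.05. Without WT polysome replicate 1, the library with epithelial markers, the polysome log2 changes were -4.61 for Gcnt1, -4.54 for Car3, -3.66 for Il33, -3.75 for Fam43a, -2.77 for Slc7a2, -2.33 for Mcc and -2.84 for Efhd1. With the block, all 7 passed in every fit that left out 1 library. Over 21 alternatives the polysome log2 change of Gcnt1 ran from -5.34 to -4.60 and its adjusted p from 6.17e-26 to 0.388, and that of Mcc, the smallest change, ran from -2.72 to -2.17 and from 8.43e-07 to 0.406. Car3 had the widest range, from -5.03 without AUF1 polysome replicate 2 to -3.93 without AUF1 polysome replicate 1 (adjusted p from 4.74e-16 to 0.388 over the 21).

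**Figure D2:**
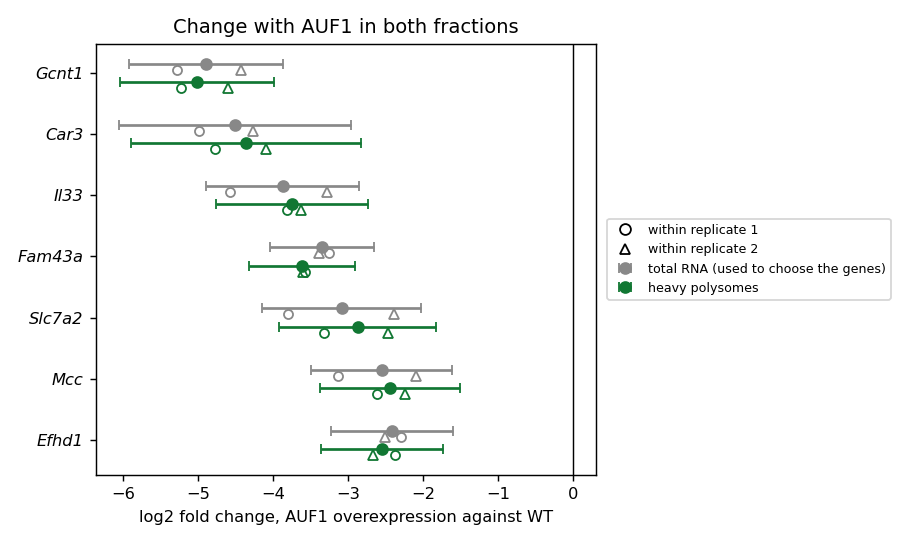
Log2 fold change of AUF1 against WT for the 7 genes in total RNA (grey, used to choose the genes) and on heavy polysomes (green), with 95% intervals from edgeR without the block and open marks for the change within replicate 1 (circle) and replicate 2 (triangle). On polysomes all intervals and within-replicate values lie below 0, from Gcnt1 at -5.02 to Mcc at -2.45. Those of total RNA also lie below 0, which the conditions of the choice required.

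In total RNA, whose contrast was used for the choice, the log2 changes were -4.90 for Gcnt1, -4.52 for Car3, -3.87 for Il33, -3.35 for Fam43a, -3.09 for Slc7a2, -2.55 for Mcc and -2.41 for Efhd1. At the lower limit of the choice Efhd1 had the smallest change and Mcc the highest adjusted p, 0.0473 in edgeR. Just outside stood Il1rn, which encodes the interleukin-1 receptor antagonist, with a change of -2.89 at a mean log2 CPM of 2.75. Slc25a23, a calcium-dependent mitochondrial carrier, stood just outside as well, with -2.53 and an edgeR adjusted p of 0.0509. All 7 were higher in replicate 2 of AUF1 total RNA, by up to 2.59-fold (Car3), whereas in WT total RNA 4 were higher in replicate 1 and 3 in replicate 2, by up to 1.56-fold (Car3). Within replicates 1 and 2 the total changes of Il33 were -4.57 and -3.28, of Slc7a2 -3.81 and -2.39, and of Mcc -3.13 and -2.10. Without AUF1 total replicate 2 the total changes of Car3 and Il33 were -5.36 and -4.48. For Fam43a the total changes within replicates 1 and 2 were -3.26 and -3.39, and for Efhd1 they were -2.29 and -2.50. Fam43a and Efhd1 thus changed by nearly the same amount in both replicates.

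The total and polysome libraries were set side by side to see whether ribosome loading of the 7 mRNAs moved with AUF1. In WT the polysome level over the total level had a log2 value of 0.37 for Gcnt1, 0.22 for Car3, 0.04 for Il33, 0.11 for Fam43a, 0.21 for Slc7a2, 0.28 for Mcc and 0.56 for Efhd1. With AUF1 these values were 0.25, 0.38, 0.17, -0.15, 0.43, 0.39 and 0.42 in the same order. The difference between the genotypes in this ratio is the difference between the polysome and the total change. It was a ratio of 0.92 for Gcnt1 (95% interval 0.39 to 2.19), 1.11 for Car3 (0.30 to 4.13), 1.09 for Il33 (0.45 to 2.67) and 0.83 for Fam43a (0.44 to 1.56). It was 1.16 for Slc7a2 (0.44 to 3.02), 1.08 for Mcc (0.45 to 2.57) and 0.91 for Efhd1 (0.43 to 1.93). Each interval reached beyond a 1.5-fold shift in at least 1 direction. As the total libraries chose the genes, no test is given. The point values of the polysome and total changes differed by at most 0.27 on the log2 scale (Fam43a, -0.27), and the remaining mRNA was found on heavy polysomes in both AUF1 libraries.

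Per length of exon (CPM per kilobase, RPKM, with lengths from the annotation), the order in WT total RNA was Car3 at 142, Efhd1 at 30.3, Il33 at 17.6, Fam43a at 14.0, Gcnt1 at 7.70, Slc7a2 at 7.46 and Mcc at 1.76 RPKM. The libraries of Gcnt1 (8.51 and 6.89 RPKM) and Slc7a2 (9.06 and 5.85) overlapped, and those of the other neighbours in the order did not, with 2 libraries each. In AUF1 total RNA the order was Car3 at 6.23, Efhd1 at 5.68, Fam43a at 1.38, Il33 at 1.20, Slc7a2 at 0.88, Mcc at 0.30 and Gcnt1 at 0.26 RPKM. There the libraries of each neighbouring pair overlapped except those of Efhd1 with Fam43a and Slc7a2 with Mcc. Car3 went from above 98.0% of 12357 genes with a length to above 49.0% of them, and Gcnt1 from above 53.6% to above 9.32%. In WT polysomes the order was that of WT total RNA, from Car3 at 166 RPKM to Mcc at 2.14. With AUF1, polysome levels ran from Car3 at 8.10 and Efhd1 at 7.60 through Il33 at 1.35, Fam43a at 1.24 and Slc7a2 at 1.18 to Mcc at 0.39 and Gcnt1 at 0.31.

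Families of the 7 genes were described to place each beside its relatives. The 7 lists held 96 other tested genes. On polysomes 1 of them, Axin2, fell and 0 rose in edgeR without the block (19 had an unadjusted p under 0.05, and DESeq2 called 12), while 7 rose and 12 fell with it (19.8%, beside 13.0% of all genes). In total RNA without the block 3 (Il1rn, Axin2 and Nkd2) fell and 0 rose. Of all genes 0.197% fell there and 1.02% were called in either direction. Axin2 and Nkd2 met the conditions by which the 7 were chosen, and Il1rn missed only the one on level. Their calls, and that of Axin2 on polysomes, are thus not independent of the choice. With the block 6 rose and 9 fell in total RNA (15.6%, beside 13.1% of all genes). The median change of the 96 was 0.00 on polysomes and 0.02 in total RNA, and 46 and 47 of them were below 0. The adjusted p-values of the next paragraphs are edgeR's with the block unless stated. Log2 changes and their SE there are from the fit without the block. The counts that rose or fell in each list on polysomes are from that fit as well. It called 13.0% of all genes there, 6.33% as lower, and a few calls in lists this short are not read as a result about a family.

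Of 18 other tested mucin-type O-glycan enzymes, 1 rose and 2 fell on polysomes. The Gcnt1 paralogue Gcnt2, which branches I antigens, changed by -0.24 ± 0.94 on polysomes (adjusted p = 0.572). Gcnt4, which makes the same core 2 branch, stood at 11.3 CPM in WT and 16.4 CPM with AUF1 on polysomes (adjusted p = 0.462). Galnt6, which starts O-glycans, rose from 0.53 to 10.4 CPM on polysomes (adjusted p = 0.000635). Galnt15 fell from 3.13 to 0.38 CPM (adjusted p = 0.00586) and the sialyltransferase St3gal2 from 196 to 99.1 CPM (adjusted p = 0.0213). Galnt4 fell in total RNA, from 15.5 to 7.19 CPM (adjusted p = 0.0204). None of these 4 passed without the block, where their adjusted p ran from 0.0916 (Galnt15) upward.

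Of 12 other tested carbonic anhydrases, 1 rose and 2 fell on polysomes. Car2, the fast cytosolic enzyme whose gene lies beside Car3, stood at 13.1 CPM in WT and 13.2 CPM with AUF1 in total RNA. On polysomes Car2 changed by 0.06 ± 0.66 (adjusted p = 0.918). Car13 fell from 208 to 81.1 CPM on polysomes (log2 change -1.36 ± 0.46, adjusted p = 0.00592), and Car8, a relative without catalytic activity, from 39.1 to 8.002 CPM (-2.29 ± 0.64, adjusted p = 0.00242). Car10 rose with the block at the limit of detection, from 0.02 to 0.49 CPM (adjusted p = 0.0244). Without the block Car13 and Car8 had adjusted p-values of 0.257 and 0.186.

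Of 15 other tested genes of the interleukin-1 family, 1 rose and 2 fell on polysomes. Il1rn, the receptor antagonist, fell from 19.9 to 2.77 CPM on polysomes (-2.84 ± 0.41, adjusted p = 0.00151, 0.0581 without the block). Il18 fell from 13.7 to 4.67 CPM (-1.55 ± 0.29, adjusted p = 0.00587, 0.0875 without the block). Il18rap, the accessory chain of the Il18 receptor, rose from 1.00 to 2.84 CPM (adjusted p = 0.0315). Il1rl1, the receptor that binds Il33, was named after its values were seen. It stood at 1.05 and 0.508 CPM in WT, against 3.08 and 0.774 CPM with AUF1 on polysomes, groups that overlapped (adjusted p = 0.142).

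Of 19 other tested SLC7 transporters and arginine enzymes, 3 rose and 1 fell on polysomes. Slc7a1, the widespread arginine transporter CAT1, stood at 53.5 and 48.8 CPM in WT, against 125 and 50.5 CPM with AUF1 on polysomes (log2 change 0.78 ± 0.70, adjusted p = 0.362). Slc7a5, which carries large neutral amino acids, rose from 71.8 to 243 CPM (adjusted p = 0.0349), and Slc7a7, an exchanger of cationic amino acids, fell from 3.24 to 1.07 CPM (adjusted p = 0.0406). Of the enzymes that use arginine or its products, Agmat rose from 1.11 to 5.15 CPM (adjusted p = 0.0196) and Gatm, the first step of creatine synthesis, from 103 to 188 CPM (adjusted p = 0.0300). Odc1, the first enzyme of polyamine synthesis, rose in total RNA from 31.7 to 70.3 CPM (adjusted p = 0.0233). None of these 5 passed without the block, with adjusted p-values of at least 0.131.

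Mcc was listed with the beta-catenin destruction complex, of which 17 other genes were tested and, on polysomes, 0 rose and 3 fell. Axin2, a scaffold of the complex and a target of Wnt signalling, fell from 49.4 to 5.48 CPM on polysomes (-3.17 ± 0.29, adjusted p = 0.000235, 0.0461 without the block). Nkd2, which binds Dishevelled, fell from 57.4 to 3.23 CPM (-4.15 ± 0.57, adjusted p = 0.000924, 0.0565 without the block). Nkd1 had 24 and 20 counts in WT and 1 and 0 with AUF1 (adjusted p = 0.0164). The other 14, which include Apc and beta-catenin itself (Ctnnb1), passed in neither fit on polysomes.

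Efhd1 was listed with mitochondrial calcium proteins, of which 15 others were tested and, on polysomes, 1 rose and 2 fell. Its paralogue Efhd2 changed by -0.11 ± 0.30 on polysomes (adjusted p = 0.848). Slc25a23, an ATP-magnesium and phosphate carrier gated by calcium, fell from 36.5 to 4.89 CPM (-2.90 ± 0.40, adjusted p = 0.00101, 0.0567 without the block). Mcu, the pore of the calcium uniporter, rose from 69.7 to 164 CPM (adjusted p = 0.00957), and Ccdc109b, the uniporter's inhibitory subunit, fell from 31.4 to 14.7 CPM (adjusted p = 0.0247). Fam43b, the one relative of Fam43a, had 0 to 4 counts per library and was not tested.

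**Figure D3:**
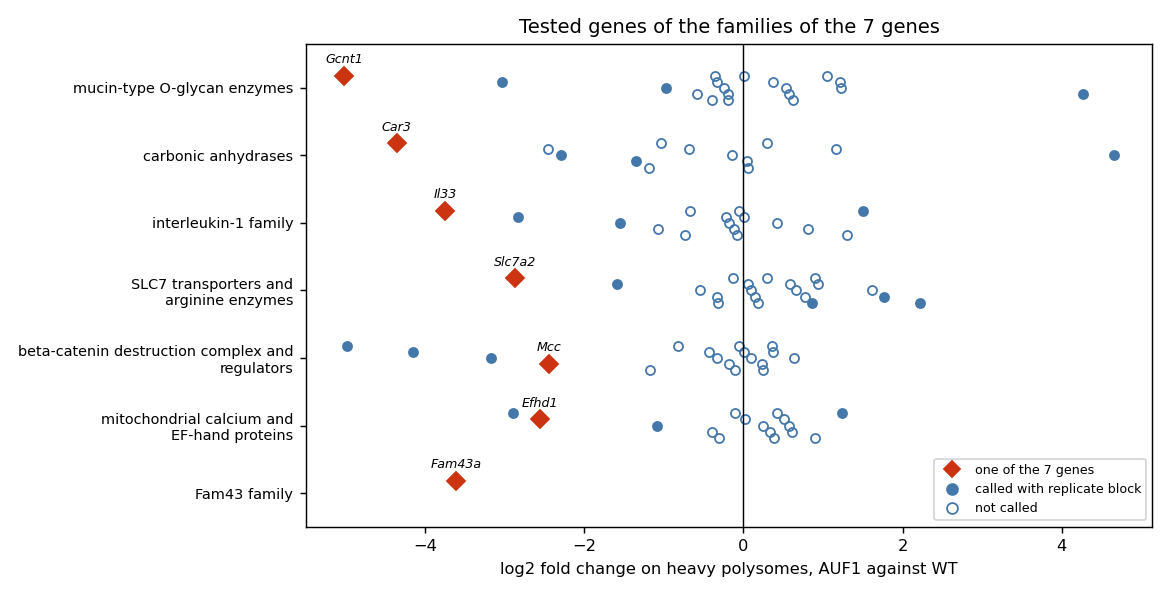
Log2 fold change on heavy polysomes, AUF1 against WT, of the tested genes in the families of the 7 genes, from edgeR without the block. Red diamonds mark the 7, filled blue points the relatives that passed with the replicate block and open points the rest. The relatives lie on both sides of 0, from Nkd1 at -4.99 to Car10 at 4.66 (median 0.00), and the 7 genes lie between -5.02 and -2.45.

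Neighbouring genes were examined to see whether the falls reached along the chromosome. The 2 nearest tested genes on each side made 28, with a median change of 0.02 on polysomes and -0.14 in total RNA. On polysomes 0 of the 28 passed by edgeR before the block was added (3 had an unadjusted p under 0.05, and DESeq2 called 1), and with it 2 rose and 2 fell (14.3%, beside 13.0% of all genes). In total RNA Gldc, the glycine cleavage enzyme 137.7 kb to the right of Il33, rose without the block (log2 change 2.07 ± 0.32, adjusted p = 0.049), the one call among the 28 (3.57%, beside 1.02% of all genes), and with the block 2 rose and 3 fell (17.9%, beside 13.1%).

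Next to Gcnt1, Prune2 and Rfk changed by 0.83 and -0.32 in total RNA. Next to Car3, Car1 and Car2 changed by 0.12 and 0.01, although Car13, the second gene to the left, was among those that fell. Next to Il33 lay Ranbp6 (-0.14) and Uhrf2 (-0.80), and next to Fam43a lay Lsg1 (0.26) and Acap2 (-0.48). Next to Efhd1 lay Eif4e2 (0.68) and Gigyf2 (-0.11), and the second gene to its left was Chrng, the embryonic acetylcholine receptor subunit, at 2.99. The 10 nearest genes of these 5 loci changed by -0.80 to 0.83 and none passed in total RNA in either fit. Pdgfrl, 3.904 kb to the right of Slc7a2, changed by -1.88 ± 1.40 (edgeR adjusted p = 0.657, 0.0181 with the block), and Mtmr7 on the left by 0.71. Inside Mcc, on the opposite strand, lies A930012L18Rik, which changed by -3.99 ± 0.79 from 0.92 to 0.05 CPM (edgeR adjusted p = 0.0917, 0.0075 with the block), whereas Dcp2 on the other side changed by -0.44. The sources used here do not give the strand setting of the counting, so reads of Mcc and of this gene may not be separable.

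**Figure D4:**
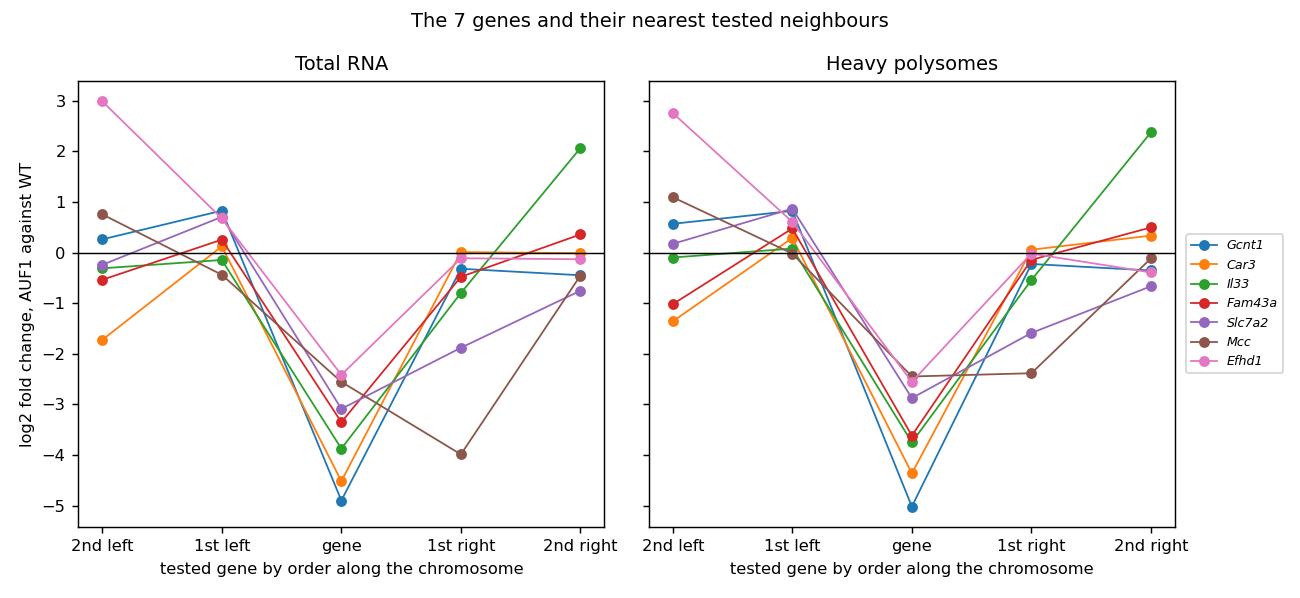
Log2 fold change, AUF1 against WT, of each of the 7 genes (centre) and its 2 nearest tested genes on either side, in order along the chromosome, in total RNA and on heavy polysomes; lines join genes of 1 locus. The centre is the lowest point of every locus except that of Mcc in total RNA, where the gene inside Mcc stands at -3.99.

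The genes whose profile over the 8 libraries was most like each of the 7 were found by the root mean square difference of log2 CPM after centring, among genes whose mean log2 CPM reached 3. For Gcnt1 they were Igf1 (0.53), Car3 (0.54) and Nkd2 (0.55), and for Car3 they were Il33 (0.53), Nkd2 (0.54) and Gcnt1 (0.54). For Il33 they were the potassium channel gene Kcnj2 (0.35), Fam43a (0.37) and Nkd2 (0.40), and for Fam43a they were Axin2 (0.29), Il33 (0.37) and Insc (0.42). Bmp4, a growth factor that holds back myogenic differentiation, was the nearest gene to both Slc7a2 (0.30) and Mcc (0.27). Slc7a2 was followed by Mcc (0.30) and Insc (0.35), and Mcc by Slc7a2 (0.30) and Efhd1 (0.33). For Efhd1 they were Sobp (0.23), Slc25a23 (0.27) and Cys1 (0.29). Among the 7 themselves the differences ran from 0.30 (Slc7a2 and Mcc) to 1.28 (Gcnt1 and Efhd1). The 8 libraries share the genotype contrast on which the 7 were chosen, and these distances carry no test.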

How the data were processed

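The authors deposited 1 table of raw read counts, with 23420 gene symbols as rows and the 8 libraries as columns. The 5 summary lines were left out of library sizes and tests (reads outside any gene, 6.04% to 7.23%; reads in more than 1 gene, 0.254% to 0.389%). STAR, Bowtie, cutadapt, Trimmomatic, SAMtools and the build mm10 are named by the submitters' processing notes. The sources used here do not give the counting program, its strand setting or tool versions. Per the labels, a NEBNext Ultra kit was used on 500 ng RNA, and libraries titled High were read as heavy polysomes.

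Genes were filtered with filterByExpr (13167 kept), scaled by TMM and fitted with edgeR 4.0.16 (R 4.3.3) by the quasi-likelihood test, with 1 coefficient per group over all 8 libraries. Tests were two-sided, with Benjamini-Hochberg adjustment over every gene tested and a threshold of 0.05. DESeq2 1.42.0, the replicate block, other scaling and filters, and fits without single libraries were alternatives. The fits were run on simulated counts that had no effect of the replicate number and the spread of the fit with the block. That run therefore cannot show how the fit without the block performs on these libraries. SD is over 2 libraries and can be smaller than counting error where counts are low. Lengths, 3' UTRs and neighbours came from GENCODE M21, in which 12357 tested genes (93.85%) were found by symbol. The second libraries are Rep2 in the sample titles, whose numbers are used here, and Rep3 in the column headers of the counts. The labels do not say what a replicate number shares. Its groups moved together (Pearson's r of replicate differences 0.67 to 0.88 across 11324 genes, which are not independent replicates).

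The members and lists were chosen with earlier results of these data known. In each family list the genes named are those that passed in either fraction, at most 4 with the smallest p, and the nearest paralogue; Slc7a7, Il1rl1, Apc and Ctnnb1 were added after their values were seen.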

Additional observations from a re-analysis of the deposited data

How the results depend on the processing

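On heavy polysomes edgeR without the block called 46 genes and 3 of the 7 members, and in total RNA 134 genes. With the replicate block, which treats equal numbers as pairs, these were 1716, 7 and 1730, and with DESeq2 856, 7 and 885. Without the filter on low counts 94 genes and 6 members were called on polysomes. With DESeq2's size factors in edgeR, and with the libraries of 1 fraction alone, 0 genes and 0 members were called in either fraction (unadjusted p under 0.05: 1779 and 1802 genes on polysomes, 1701 and 1319 in total RNA). Leaving out 1 library without the block gave 0 genes and 0 members each time (unadjusted p under 0.05: 1086 to 2044 genes on polysomes, 1033 to 2600 in total RNA). With the block it gave 592 (without AUF1 polysome replicate 1) to 3011 (without AUF1 total replicate 1) genes on polysomes, in total RNA 329 when WT total replicate 1 was left out to 2975 when AUF1 total replicate 2 was, and 7 members each time. The cause was not tested. All 7 members kept a negative polysome change in all 21 alternatives, and 11 of these gave an adjusted p under 0.05 for each member except Mcc, with 10. Both the 2 libraries a group and, for AUF1 levels that rest on few counts (34 and 48 for Gcnt1 in total RNA), depth limit these values.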
